A study of Mus musculus with 8 samples.

Results

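The genes described are 48 genes whose RNA accumulates in the G2 phase and mitosis, among 54837 genes counted in basal cells of mouse mammary glands after a sort into G1 and G0. They were taken as a given list of names (cyclins, mitotic kinases, checkpoint, kinetochore, spindle, cytokinesis and chromosome genes) drawn up with earlier results of these data known, with no measured value in the rule, and all 48 matched a gene identifier in the table through GENCODE M21 symbols. RNA was sequenced from untreated cells of C57BL/B6 mice sorted as G1 (4 libraries, runs 1 to 4) and as G0 (4 libraries, runs 1 to 4), with 1 library of each phase in every run. The design text of the series names differences in expression between G0 and G1 as the question. The labels do not give the age or number of mice behind a library or whether runs used separate animals, and no source used here gives the markers of the sort, so the p-values measure the spread between these libraries, which may be technical. Neither phase contains G2 or mitotic cells by its label, and the comparison asks how much RNA of G2/M genes each sort held.

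Cells in G0 have left the cycle, and cells in G1 have entered it but have not copied their DNA. In G0 and early G1, G2/M genes are held low by the MuvB core bound to repressors (the DREAM complex), and they are switched on later when the same core binds B-Myb and FoxM1. MuvB recognises a short promoter element, the cell cycle genes homology region, whose usual form is TTTGAA, with TTTAAA as a common variant, and many of the same promoters hold CCAAT boxes, which bind NF-Y. In mammary epithelium these genes are commonly read as a sign of dividing cells, with Mki67 and Top2a as the usual markers.

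The shared promoter design of the group can be seen in RefSeq sequence (GRCm38.p6, 250 bases before to 50 bases after the annotated start). Both forms of this element and the CCAAT box were looked for on both strands, and each match was counted even where it overlapped another. The promoters of 4 genes are shown because the results below turn on them: Cdk1 and Ccnb2 as the kinase and cyclin of mitotic entry, Hmgb2 as the most abundant gene of the list and Cks2 as the one that differed most between runs. Capitals mark a motif, on the strand of the gene or, as a reverse complement such as ATTGG for the CCAAT box, on the other strand.
Cdk1 (chr10:69352863-69353162, minus strand): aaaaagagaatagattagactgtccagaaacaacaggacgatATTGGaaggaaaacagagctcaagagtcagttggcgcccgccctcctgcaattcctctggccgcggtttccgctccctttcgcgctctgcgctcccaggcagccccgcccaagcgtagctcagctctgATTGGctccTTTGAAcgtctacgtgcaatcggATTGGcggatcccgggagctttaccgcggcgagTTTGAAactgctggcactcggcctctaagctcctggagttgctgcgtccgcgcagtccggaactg
Ccnb2 (chr9:70421505-70421804, minus strand): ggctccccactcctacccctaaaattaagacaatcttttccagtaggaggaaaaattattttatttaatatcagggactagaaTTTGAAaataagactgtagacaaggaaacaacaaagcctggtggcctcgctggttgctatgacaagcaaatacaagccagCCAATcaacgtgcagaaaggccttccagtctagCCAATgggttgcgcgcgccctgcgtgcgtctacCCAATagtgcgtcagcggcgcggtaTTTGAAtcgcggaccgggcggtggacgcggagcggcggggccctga
Hmgb2 (chr8:57511593-57511892, plus strand): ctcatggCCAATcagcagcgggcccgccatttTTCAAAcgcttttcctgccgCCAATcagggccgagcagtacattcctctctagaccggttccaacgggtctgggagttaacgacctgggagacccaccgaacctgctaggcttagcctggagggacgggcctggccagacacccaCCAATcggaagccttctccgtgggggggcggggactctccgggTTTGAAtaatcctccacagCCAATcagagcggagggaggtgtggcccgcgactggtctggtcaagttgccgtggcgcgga
Cks2 (chr13:51644982-51645281, plus strand): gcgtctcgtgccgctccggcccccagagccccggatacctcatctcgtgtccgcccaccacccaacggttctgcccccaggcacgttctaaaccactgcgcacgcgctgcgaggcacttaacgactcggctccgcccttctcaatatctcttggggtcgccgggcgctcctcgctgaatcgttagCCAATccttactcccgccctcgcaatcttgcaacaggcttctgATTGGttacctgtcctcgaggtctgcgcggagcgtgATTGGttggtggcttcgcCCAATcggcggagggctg
Cdk1 and Ccnb2 each had 2 TTTGAA and 3 CCAAT matches, Hmgb2 had 2 and 4, and Cks2 had 4 CCAAT matches with neither form of the element in this window.

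A promoter was found for 40 of the 48 genes. TTTGAA was present in 29 of them (72.5%), against 18.1% of 27025 mouse promoters of the same length. TTTAAA was present in 10 (25%), against 13.2% of all promoters. CCAAT was present in 31 (77.5%), against 37.9%, and 22 (55%) held at least 2 CCAAT matches, against 12.2%. TTTGAA and CCAAT stood together in 25 promoters (62.5%), against 7.12% of all promoters. The richest in CCAAT were those of Ube2c and Top2a, with 6 matches each, and Hmmr with 5. None of the 3 motifs was found in the windows of Nuf2, Nusap1, Melk and Tacc3. These are matches of letters, not measured binding.

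Total counts per library were 6807090 to 13711195 in G1 and 5868728 to 15014104 in G0. The basal identity of the sort was checked on 10 basal markers, among them the keratins Krt5 and Krt14 and the smooth muscle actin Acta2; all 10 were detected in all 8 libraries, with summed levels of 32123 to 35895 CPM, reads scaled to library size, in G1 and 23172 to 30202 CPM in G0. All of 12 endothelial markers were detected in every library, with summed levels of 31.1 to 138 CPM in G1 and 179 to 380 CPM in G0. In the edgeR fit with the run as a block, 12 of 12 were called lower in G1 (adjusted p under 0.05), beside 0.764% of all tested genes. That fit also called 4 of 8 fibroblast markers lower in G1, and 2 of 10 basal markers higher, beside 0.481% of all tested genes. Luminal progenitor markers summed to 1154 to 1885 CPM in G1 and 992 to 2102 CPM in G0, with 0 of 7 tested called. Most of these sums came from the keratins Krt8 (639 to 1177 CPM over the 8 libraries) and Krt18 (267 to 647 CPM). Elf5 stood at 0.0895 to 3.75 CPM, Kit at 0.537 to 3.75 CPM and Wfdc18 at 5.19 to 130 CPM. Olfactory receptor genes, which mammary cells are not known to use, served as a background of genes not expected in this sort. Of 1407 such genes, 41, 30, 57 and 215 had at least 1 count in G1 runs 1 to 4, against 48, 30, 469 and 1106 in G0 runs 1 to 4. G0 run 4 stood apart, with counts for 39094 genes against 20836 to 26614 in the other 7 libraries.

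Nearly all of the G2/M genes were detected in both phases. With at least 1 count as detection, 44, 43, 46 and 48 of the 48 genes were detected in G1 runs 1 to 4, against 42, 41, 46 and 48 in G0 runs 1 to 4 (mean 45.3 ± 2.22 in G1 and 44.3 ± 3.30 in G0, SD, n = 4 each). The numbers of the phases overlapped, and in both they were highest in run 4. Without run 4 the means were 44.3 in G1 and 43 in G0. With at least 10 counts, 26, 28, 30 and 39 genes remained in G1, against 20, 22, 36 and 35 in G0. Thinned to the depth of the smallest library, 41.6, 41.2, 44.7 and 47.98 genes were expected in G1, against 39.0, 38.2, 43.2 and 48 in G0. Beside these, 38.0% to 43.0% of all genes counted had at least 1 count in the G1 libraries. In G0 the share was 38.3% to 71.3%, highest in run 4. Of the genes that passed the filter on low counts, 99.4% or more were detected in every library.

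The olfactory background was highest in G0 runs 3 and 4. The olfactory receptor genes held 0.0486, 0.0320, 0.0985 and 0.0952 counts per kilobase of exon in G1, against 0.110, 0.0353, 0.662 and 1.08 in G0. The median G2/M gene held 2.56, 2.64, 2.70 and 4.26 counts per kilobase in G1, against 1.33, 1.45, 3.78 and 3.01 in G0. In G1, 44, 43, 46 and 47 of the 48 genes lay above the 95th percentile of the olfactory receptor genes, against 42, 41, 24 and 19 in G0. That percentile was 0 in G1 runs 1 to 3 and G0 runs 1 and 2, where the number therefore repeats the genes detected. At the density of the olfactory genes, the numbers expected were 12.1, 7.95, 24.5 and 23.7 of the 3080, 3384, 2521 and 2405 counts of the 48 genes in G1, and 27.3, 8.78, 165 and 268 of the 2444, 2304, 3389 and 1566 counts in G0.

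**Figure D1:**
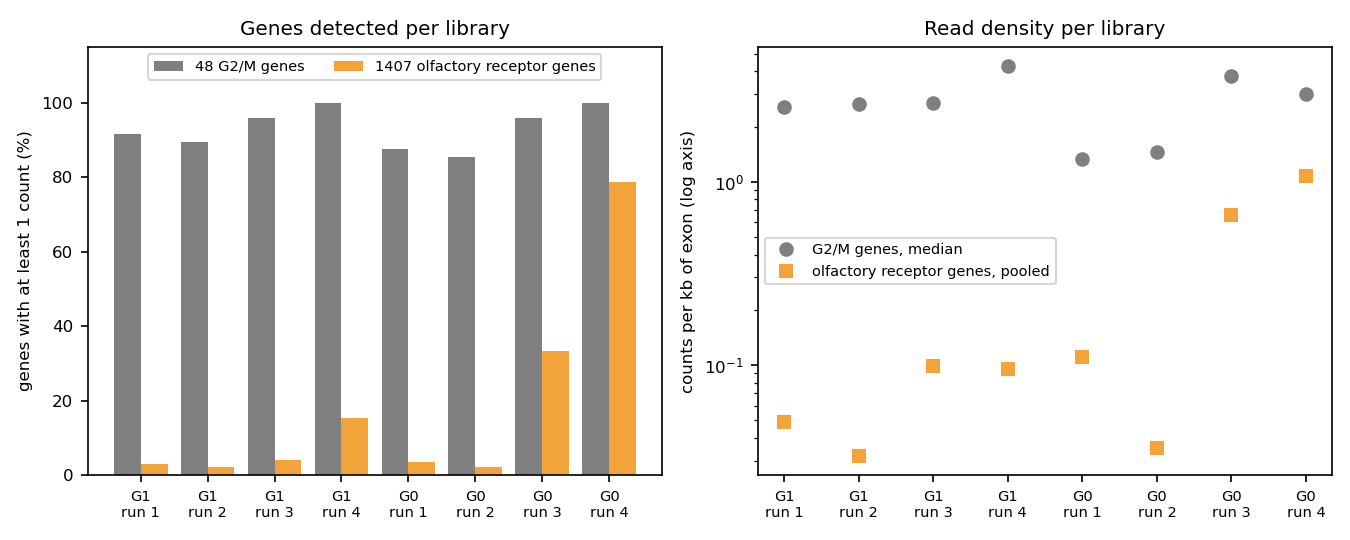
Detection of the 48 G2/M genes and of 1407 olfactory receptor genes in each library, G1 left and G0 right. Left, the share of genes with at least 1 count in percent; right, counts per kilobase of exon on a log axis (median of the 48 genes, pooled value of the olfactory receptor genes). The olfactory receptor genes reach 33.3% in G0 run 3 and 78.6% in G0 run 4, against 2.13% to 15.3% in the other libraries.

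Of the 48 genes, 12 were absent from at least 1 library and 36 were detected in all 8. Aurkb, the kinase of the chromosomal passenger complex, was at 0 in 5 libraries, G1 runs 1 and 2 and G0 runs 1, 2 and 3. Bub1, a kinase of the spindle checkpoint, was at 0 in runs 1 and 2 of both phases. A count of 0 allows up to 3 counts, which is 0.219 to 0.441 CPM in the G1 libraries and 0.200 to 0.511 CPM in the G0 libraries, counting error alone.

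Levels were low and very uneven. Averaged over the 8 libraries, 17 genes stood under 1 CPM, 22 between 1 and 5 CPM and 9 at 5 CPM or more, between 0.319 CPM for Cdc25c, the phosphatase that activates Cdk1, and 65.5 CPM for Hmgb2, an HMG-box chromatin protein. Per kilobase of exon, 44 of the 48 lay below the median of the 15192 genes tested and 38 below their 25th percentile, with a median percentile of 3.12. Of the 48, 18 did not pass the filter on low counts but were ranked against genes that did. Their low ranks partly follow from the filter. The genes above that median were Hmgb2 at 21.8 CPM per kilobase, Cks2 at 12.5, Smc4 at 6.60 and Hjurp at 5.33. Mki67 stood at 0.180 and Top2a at 0.201 CPM per kilobase, at percentiles 0.751 and 1.10. Hmgb2, Hjurp, Smc4, Kif20a and Ccna2 together carried 66.0% of the summed CPM of the list.

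**Figure D2:**
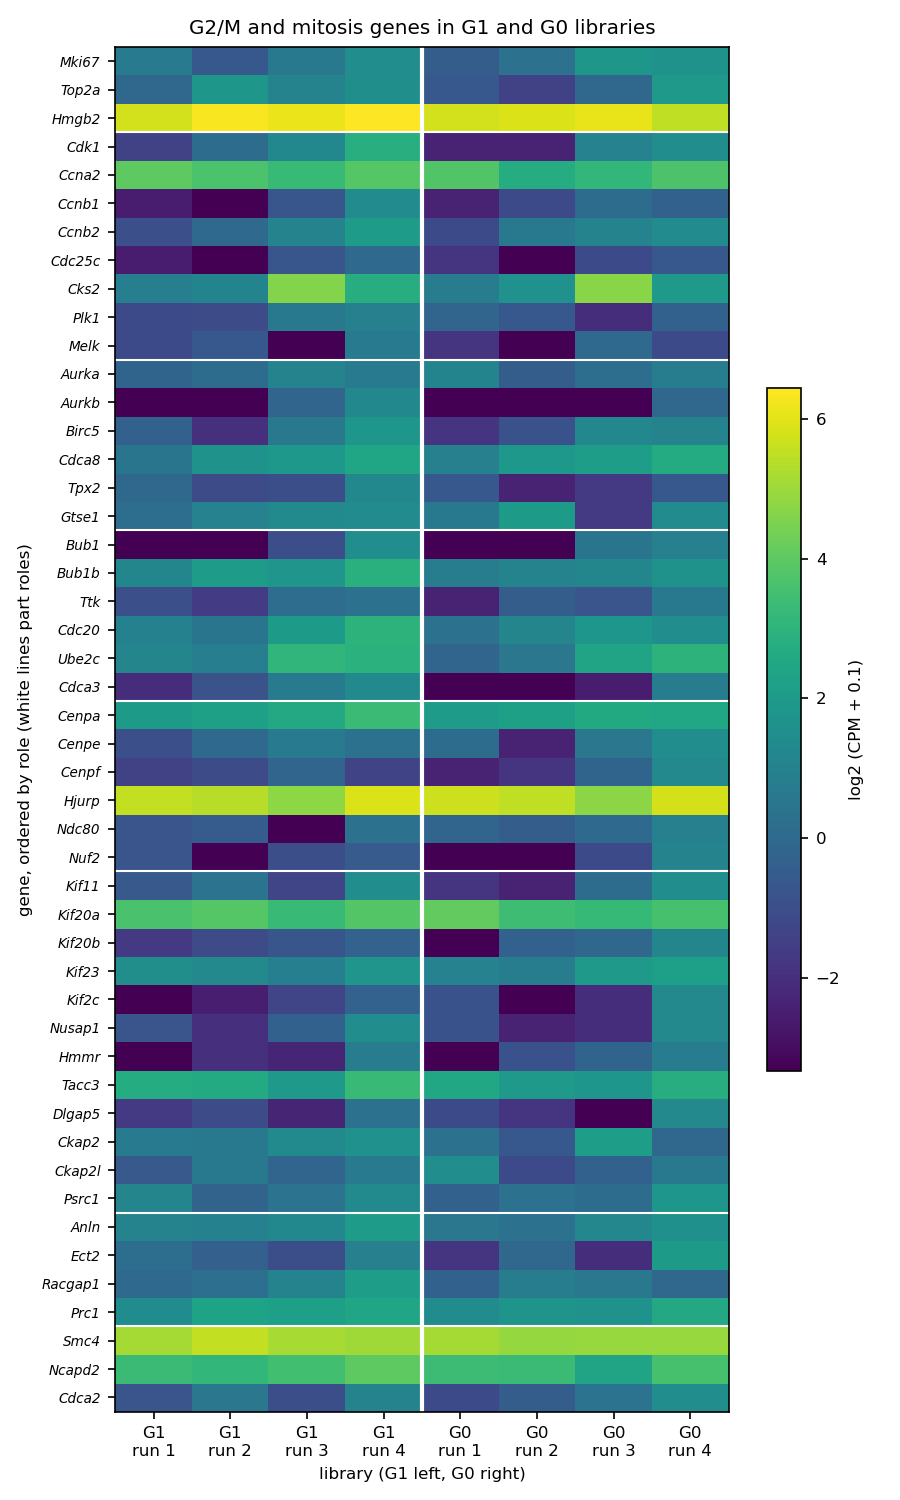
Level of each of the 48 G2/M genes in each library as log2 of CPM plus 0.1, G1 libraries left and G0 libraries right, genes grouped by role between white lines. Hmgb2, Hjurp and Smc4 are high in all 8 libraries, Cks2 is high in run 3 of both phases, and most other genes are lightest in run 4.

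No G2/M gene was called between G1 and G0. Of the 48, 30 passed the filter on low counts and were tested by edgeR's quasi-likelihood test with the phase alone, and 0 of 30 passed an adjusted p of 0.05, beside 0 of all 15192 genes (0%). At an unadjusted p under 0.05 there were 0 of the 30, against 425 of all genes (2.8%). With the run as a block, 189 genes were called (1.24%; 73 higher in G1, 0.481%, and 116 lower, 0.764%), among them 0 of the 30 (97 genes and 0 of the list without run 4), and 3 of the 30 (Hmgb2, Bub1b and Cdk1) had an unadjusted p under 0.05, against 12.3% of all genes. DESeq2 called 34 genes (0.224%; 10 higher, 0.0658%, and 24 lower, 0.158%) and limma-voom 0 (0%), again with 0 of the 30. At an unadjusted p under 0.05 there was 1 of the 30 by DESeq2 (Bub1b), against 3.28% of all genes, and 0 by limma-voom, against 2.75%. Without a filter on low counts, edgeR called 87 of 42494 genes (0.205%; 14 higher, 0.0329%, and 73 lower, 0.172%) and 0 of the 48. The CPM ranges of the 2 phases did not overlap for 304 genes (2%), none of them on the list. In bulk libraries fewer dividing cells and less RNA per cell cannot be told apart.

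More fold changes were positive than negative, though 0 of them passed the test. Log2 fold changes of G1 over G0 were positive for 20 of the 30 tested genes and negative for 10, with a median of 0.20, beside 49.9% positive and a median of -0.0007 over all tested genes. With the run as a block 23 were positive and 7 negative, with a median of 0.23, beside 51.1% positive and a median of 0.01 over all tested genes. Run by run, 28, 25, 32 and 30 of the 48 genes had a higher CPM in G1, and 17, 19, 16 and 18 a lower one. Of the 30 tested genes 63.3%, 56.7%, 70% and 63.3% were higher in G1 in runs 1 to 4, beside 50.9%, 52.3%, 52.4% and 51.3% of all tested genes. The share in run 2 was near that of all genes, but the median log2 ratio was largest there. The medians in runs 1 to 4 were 0.218, 0.443, 0.143 and 0.167, beside 0.005, 0.022, 0.025 and 0.017 for all tested genes. 8 genes were higher in G1 in all 4 runs (Ccna2, Tacc3, Bub1b, Cdk1, Cdca3, Anln, Nusap1 and Tpx2), and Cdca8 and Ndc80 in none. The share of all genes higher in all 4 runs was not taken, so whether 8 is many cannot be said. Some of these gaps were of few reads, such as Nusap1 in run 2 (2 in G1, 1 in G0) and Cdca3 in run 1 (2 in G1, 0 in G0). The precision was limited, since the median standard error was 0.58 for the 30 genes and 0.28 for all tested genes with the phase alone, and 0.42 for the 30 genes and 0.18 for all with the run as a block.

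**Figure D3:**
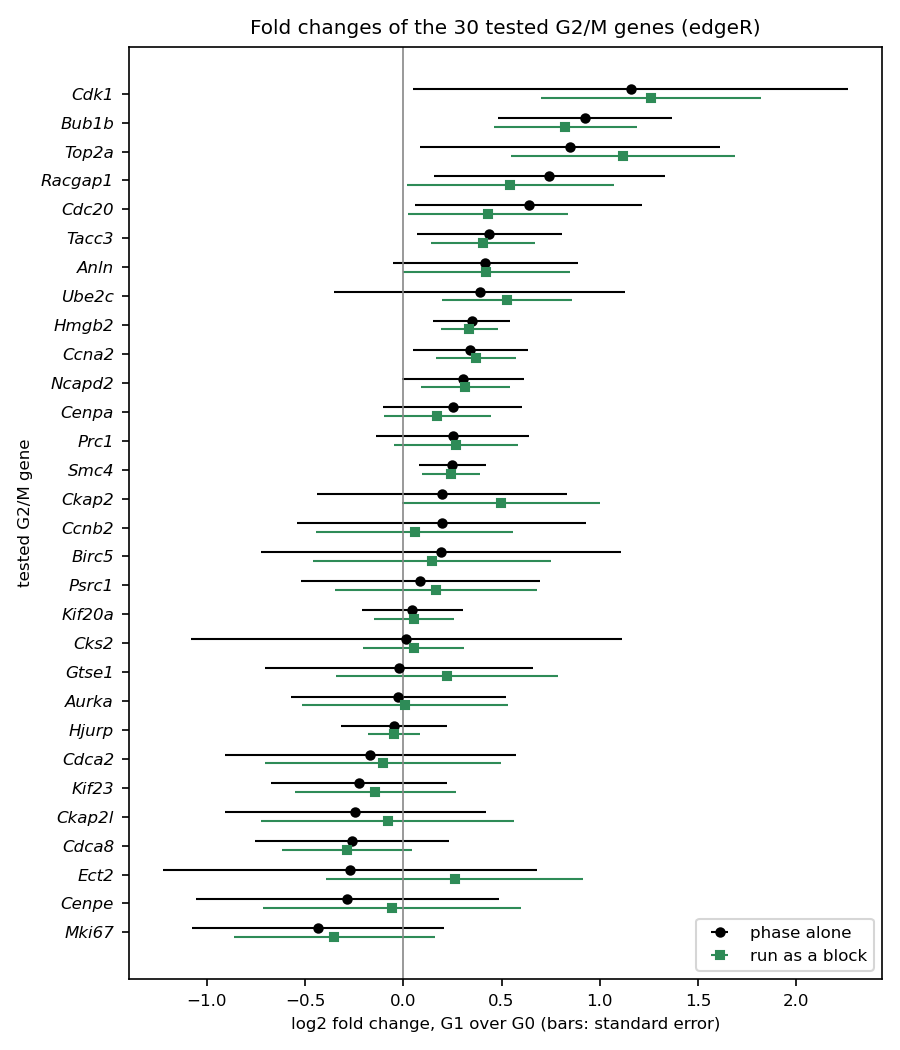
Log2 fold change of G1 over G0 for the 30 tested G2/M genes, with standard errors, from edgeR with the phase alone (circles) and with the run as a block (squares). Values lie between -0.43 for Mki67 and 1.16 for Cdk1 with the phase alone, and 0 of the 30 pass an adjusted p of 0.05 in either fit.

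Summed over the list, the level was 218, 259, 257 and 359 CPM in G1 runs 1 to 4, against 222, 206, 239 and 280 CPM in G0 runs 1 to 4 (274 ± 60.2 in G1 and 237 ± 31.8 in G0, SD, n = 4 each). The ranges overlapped. Within runs the G1 level was 0.984, 1.26, 1.07 and 1.28 times the G0 level, a mean log2 ratio of 0.19 ± 0.18 (SD over 4 runs). Without run 4 the sums averaged 245 CPM in G1 and 222 CPM in G0, and the mean log2 ratio was 0.14. Without the 5 most abundant genes the sums were 54.3, 62.8, 105 and 152 CPM in G1, against 49.1, 53.1, 95.3 and 123 CPM in G0, and the ratio was above 1 in every run (1.11, 1.18, 1.10 and 1.24). With the olfactory background subtracted, an alternative chosen after seeing the data, the sum in G0 run 4 was 234 CPM in place of 280, and the ratio in run 4 was 1.52. With that subtraction and without the 5 most abundant genes the ratio in run 4 was 1.81.

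**Figure D4:**
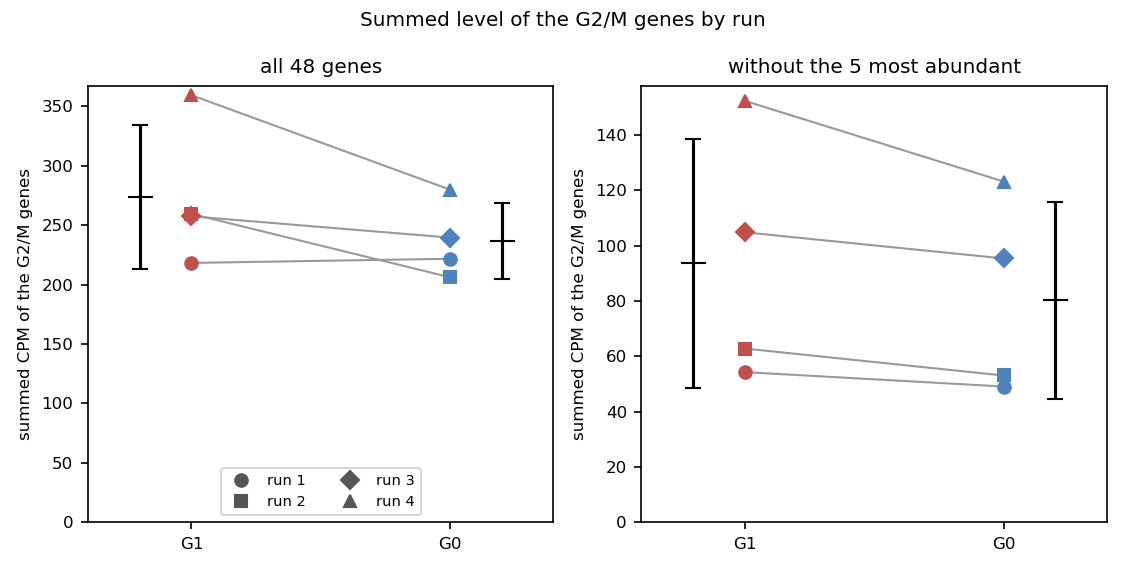
Summed CPM of the 48 G2/M genes (left) and of the 43 left without the 5 most abundant (right) in G1 and G0, with lines joining the 2 libraries of a run and bars giving the mean and SD of 4 libraries. All 48 genes sum to 218 to 359 CPM in G1 and to 206 to 280 CPM in G0, and run 4 is highest in both phases.

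The 3 chromatin and proliferation genes had fold changes of both signs, with 2 positive and 1 negative. Hmgb2 (chr8:57511907-57515999, plus strand, GRCm38) had 54.3, 81.9, 70.9 and 86.5 CPM in G1 runs 1 to 4, against 55.0, 61.3, 69.0 and 44.8 CPM in G0 runs 1 to 4. The phases overlapped, and the widest gap was in run 4. Its log2 fold change was 0.35 ± 0.20 (SE; edgeR, unadjusted p = 0.102, adjusted p = 0.9999), and 0.34 ± 0.14 in the blocked fit (adjusted p = 0.326). Top2a, the topoisomerase that untangles replicated chromosomes, had 0.850, 3.45, 1.94 and 2.84 CPM in G1, against 0.544, 0.268, 0.848 and 3.75 CPM in G0. It was higher in G1 in 3 runs and lower in run 4, with a log2 fold change of 0.85 ± 0.76 that was 1.99 without G0 run 4. Mki67 (chr7:135689784-135716361, minus strand) had 1.56, 0.537, 1.43 and 2.69 CPM in G1, against 0.635, 1.16, 3.46 and 3.04 CPM in G0. Its log2 fold change of -0.43 ± 0.64 was the lowest of the 30 tested genes, and it was higher in G1 in run 1 alone.

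Among the genes of mitotic entry, Cdk1 (chr10:69335146-69352938, minus strand), the kinase that drives it, had 0.283, 0.997, 2.25 and 7.02 CPM in G1, against 0.0907, 0.0895, 1.91 and 2.68 CPM in G0. In counts this was 4, 13, 22 and 47 reads in G1 and 1, 1, 27 and 15 reads in G0. It was higher in G1 in every run, but its level differed more between runs than between phases, and its log2 fold change of 1.16 ± 1.11, the highest of the tested genes, had an unadjusted p of 0.319 (edgeR). Without G1 run 4 that fold change was 0.0089. With all libraries in the blocked fit it was 1.26 ± 0.56 (adjusted p = 0.353). Ccna2, the cyclin of S phase and G2, had 16.1, 12.6, 9.39 and 14.5 CPM in G1, against 13.7, 6.44, 8.69 and 12.9 CPM in G0, higher in G1 in every run with overlapping ranges (log2 fold change 0.34 ± 0.29). It shares 510 exon bases with Exosc9 on the opposite strand, a gene at 37.1 CPM.

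The B-type cyclins stood lower. Ccnb2 had 0.425, 0.920, 1.94 and 4.03 CPM in G1, against 0.363, 1.43, 1.98 and 2.501 CPM in G0 (log2 fold change 0.20 ± 0.73). Ccnb1 was too low to be tested, with 0.0709, 0, 0.511 and 2.54 CPM in G1, against 0.0907, 0.358, 0.989 and 0.715 CPM in G0. Plk1, the polo-like kinase, was also untested, with 0.354, 0.383, 1.43 and 1.79 CPM in G1, against 0.816, 0.537, 0.141 and 0.715 CPM in G0. For all 3 the ranges overlapped. The kinase gene Melk and Cdc25c were each at 0 in 2 libraries and averaged under 1 CPM.

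The aurora kinases and passenger genes had 1 positive and 3 negative fold changes among 4 tested with the phase alone, and 3 positive and 1 negative with the run as a block. Aurka, the kinase of the spindle poles, had 0.779, 0.997, 1.94 and 1.49 CPM in G1, against 1.996, 0.626, 1.06 and 1.61 CPM in G0 (log2 fold change -0.02 ± 0.55). Aurkb was seen at 0.817 CPM in G1 run 3 and 2.24 CPM in G1 run 4, against 0.893 CPM in G0 run 4, and was at 0 in the other 5 libraries. Birc5, the passenger subunit survivin, had 0.709, 0.153, 1.43 and 3.44 CPM in G1, against 0.181, 0.447, 2.26 and 1.97 CPM in G0, with runs 3 and 4 high in both phases (log2 fold change 0.19 ± 0.92). Cdca8, the passenger subunit borealin, had 1.28, 3.07, 3.57 and 5.38 CPM in G1, against 1.81, 3.58, 4.24 and 6.25 CPM in G0. It was lower in G1 in all 4 runs by small steps, with a log2 fold change of -0.26 ± 0.49 (edgeR; block -0.29 ± 0.33, adjusted p = 0.797). Tpx2, which activates aurora A on the spindle, was not tested and averaged 0.971 ± 0.873 CPM in G1 and 0.345 ± 0.230 CPM in G0 (SD, n = 4 each), and the microtubule protein gene Gtse1 had a log2 fold change of -0.02 ± 0.68.

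The 3 tested genes of the spindle checkpoint and the anaphase-promoting complex all had positive fold changes. Bub1b (chr2:118598211-118641591, plus strand), the checkpoint protein BubR1, had 2.13, 4.06, 3.27 and 7.17 CPM in G1, against 1.63, 1.97, 2.12 and 3.04 CPM in G0 (4.16 ± 2.16 in G1 and 2.19 ± 0.601 in G0, SD, n = 4 each). It was higher in G1 in every run and had the smallest unadjusted p of the list in the fit with the phase alone (0.0603 by edgeR), with a log2 fold change of 0.92 ± 0.44 and a blocked adjusted p of 0.344. Bub1 had 0, 0, 0.408 and 2.69 CPM in G1, against 0, 0, 1.27 and 1.79 CPM in G0, and was not tested. Cdc20, the activator of the anaphase-promoting complex, had 1.84, 1.30, 3.88 and 7.77 CPM in G1, against 1.18, 2.06, 3.39 and 2.68 CPM in G0 (log2 fold change 0.64 ± 0.58). Without G1 run 4 that fold change was -0.0043. The checkpoint kinase gene Ttk averaged 0.718 ± 0.463 CPM in G1 and 0.660 ± 0.561 CPM in G0, and Cdca3, a gene of mitotic entry, 1.13 ± 1.03 CPM in G1 and 0.420 ± 0.793 CPM in G0 (SD, n = 4 each), and both were untested. Ube2c, the ubiquitin-conjugating enzyme of the anaphase-promoting complex, had 2.05, 1.69, 8.37 and 7.47 CPM in G1, against 0.816, 1.34, 5.09 and 7.86 CPM in G0 (log2 fold change 0.39 ± 0.74).

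Ube2c shares 592 exon bases with the muscle gene Tnnc2 on the opposite strand. Ube2c had 29, 22, 82 and 50 reads in G1 and 9, 15, 72 and 44 in G0, and Tnnc2 had 12, 13, 63 and 47 in G1 and 8, 4, 44 and 28 in G0. Both were high in runs 3 and 4. The kit keeps strand, but no source used here says whether the counting used it, and the antisense gene Gm48529 held 89.3% to 96.7% of the counts of its partner Tagln, so opposite strands cannot be told apart in this table. In all, 13 of the 48 genes share exon bases with another gene, and their part in the results was not tested beyond leaving them out of the sum, which was then 163, 201, 198 and 269 CPM in G1, against 164, 164, 195 and 205 CPM in G0.

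Among centromere and kinetochore genes, Hjurp, the chaperone that loads CENP-A, had 46.4, 41.5, 27.7 and 59.0 CPM in G1, against 52.1, 45.4, 26.9 and 56.3 CPM in G0 (log2 fold change -0.05 ± 0.27; with the block -0.05 ± 0.13). The 2 libraries of each run lay close together and run 3 was lowest in both phases. Cenpa, the centromeric histone itself, averaged 6.06 ± 2.75 CPM in G1 and 5.05 ± 0.929 CPM in G0 (SD, n = 4 each). The microtubule-binding kinetochore genes Ndc80 and Nuf2 and the large kinetochore protein gene Cenpf averaged between 0.375 and 1.04 CPM in either phase and were not tested. Cenpe, a motor of the kinetochore, had a log2 fold change of -0.29 ± 0.77.

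Kinesins and spindle genes made up 12 of the list, of which 6 were tested. Kif20a, a kinesin of the central spindle, had 12.2, 14.5, 9.496 and 13.9 CPM in G1, against 16.8, 10.4, 9.26 and 12.1 CPM in G0 (log2 fold change 0.04 ± 0.26), and it shares 1271 exon bases with Cdc23 on the opposite strand, a gene at 59.1 CPM. Tacc3, a microtubule-stabilising protein of the spindle, had 6.52, 6.13, 3.68 and 9.71 CPM in G1, against 5.62, 3.67, 3.39 and 6.61 CPM in G0. It was higher in G1 in every run with overlapping ranges (log2 fold change 0.44 ± 0.37), and it shares 289 exon bases with Tmem129 on the opposite strand, a gene at 17.2 CPM. The motor Kif11, which pushes the spindle poles apart, had 0.567, 1.23, 0.306 and 2.69 CPM in G1, against 0.181, 0.0895, 0.989 and 2.68 CPM in G0. Run 4 was highest in both phases. Nusap1, Hmmr, Dlgap5, Kif20b and Kif2c, untested like Kif11, averaged 0.282 to 1.01 CPM in G1 and 0.708 to 0.927 CPM in G0. The centralspindlin motor Kif23 had a log2 fold change of -0.23 ± 0.45, and the spindle-associated Ckap2, Ckap2l and Psrc1 had 0.20 ± 0.64, -0.24 ± 0.66 and 0.09 ± 0.61.

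The 4 cytokinesis genes were all tested. Racgap1, a subunit of centralspindlin, had 0.921, 1.07, 1.94 and 4.18 CPM in G1, against 0.726, 1.61, 1.41 and 0.893 CPM in G0 (log2 fold change 0.74 ± 0.59), with G1 run 4 above all other libraries. Without that library the fold change was 0.14. Ect2, which activates RhoA at the division furrow, had 1.06, 0.690, 0.408 and 1.79 CPM in G1, against 0.181, 0.895, 0.141 and 3.93 CPM in G0. Its fold change was -0.27 ± 0.95 and rested on G0 run 4, since without that library it was 1.25. At the density of the olfactory genes, 5.81 of the 22 Ect2 reads in G0 run 4 were expected. The part of that background in the Ect2 level was not tested. Anln, the furrow protein anillin, averaged 2.53 ± 1.02 CPM in G1 and 1.89 ± 0.783 CPM in G0 (SD, n = 4 each). Prc1, which bundles microtubules of the central spindle, had a log2 fold change of 0.25 ± 0.39.

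Smc4, the ATPase core subunit of condensin, had 34.9, 46.0, 35.2 and 33.2 CPM in G1, against 35.1, 29.6, 30.4 and 30.6 CPM in G0 (37.3 ± 5.85 in G1 and 31.4 ± 2.49 in G0, SD, n = 4 each). G1 run 2 was the highest library, and the log2 fold change of 0.25 ± 0.17 did not pass the test (edgeR, adjusted p = 0.9999; with the block 0.539). Ncapd2, a subunit of condensin I, had a log2 fold change of 0.30 ± 0.31. Cdca2, which brings a phosphatase to chromosomes, had one of -0.17 ± 0.74.

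In the blocked edgeR fit, the term for run, a test added after seeing the data, called 9 of the 30 tested genes, beside 5411 of all 15192 (35.6%), so the share on the list was near that of all genes. The 9 were Cks2, Ube2c, Cdk1, Hjurp, Birc5, Ccnb2, Cdca8, Ect2 and Cdc20. Without run 4 the run term called 4 of the list and 5274 of all genes, and without run 3 it called 6 of the list and 2231 of all genes. The genes that passed the filter changed with the run left out, and Birc5 and Ect2 did not pass it without run 4. Cks2 (chr13:51645232-51650660, plus strand), a small subunit that binds cyclin-dependent kinases, had 1.70, 1.99, 24.8 and 6.72 CPM in G1, against 1.63, 2.95, 25.7 and 3.75 CPM in G0. Run 3 was the highest in both phases, with 243 reads in G1 and 364 reads in G0, and the adjusted p for run was 2.4e-09 (edgeR). Between phases its log2 fold change was 0.02 ± 1.10, and 0.05 ± 0.26 with the run as a block. Near-identical copies of Cks2 in other genes held at most 9 reads in a library.

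**Figure D5:**
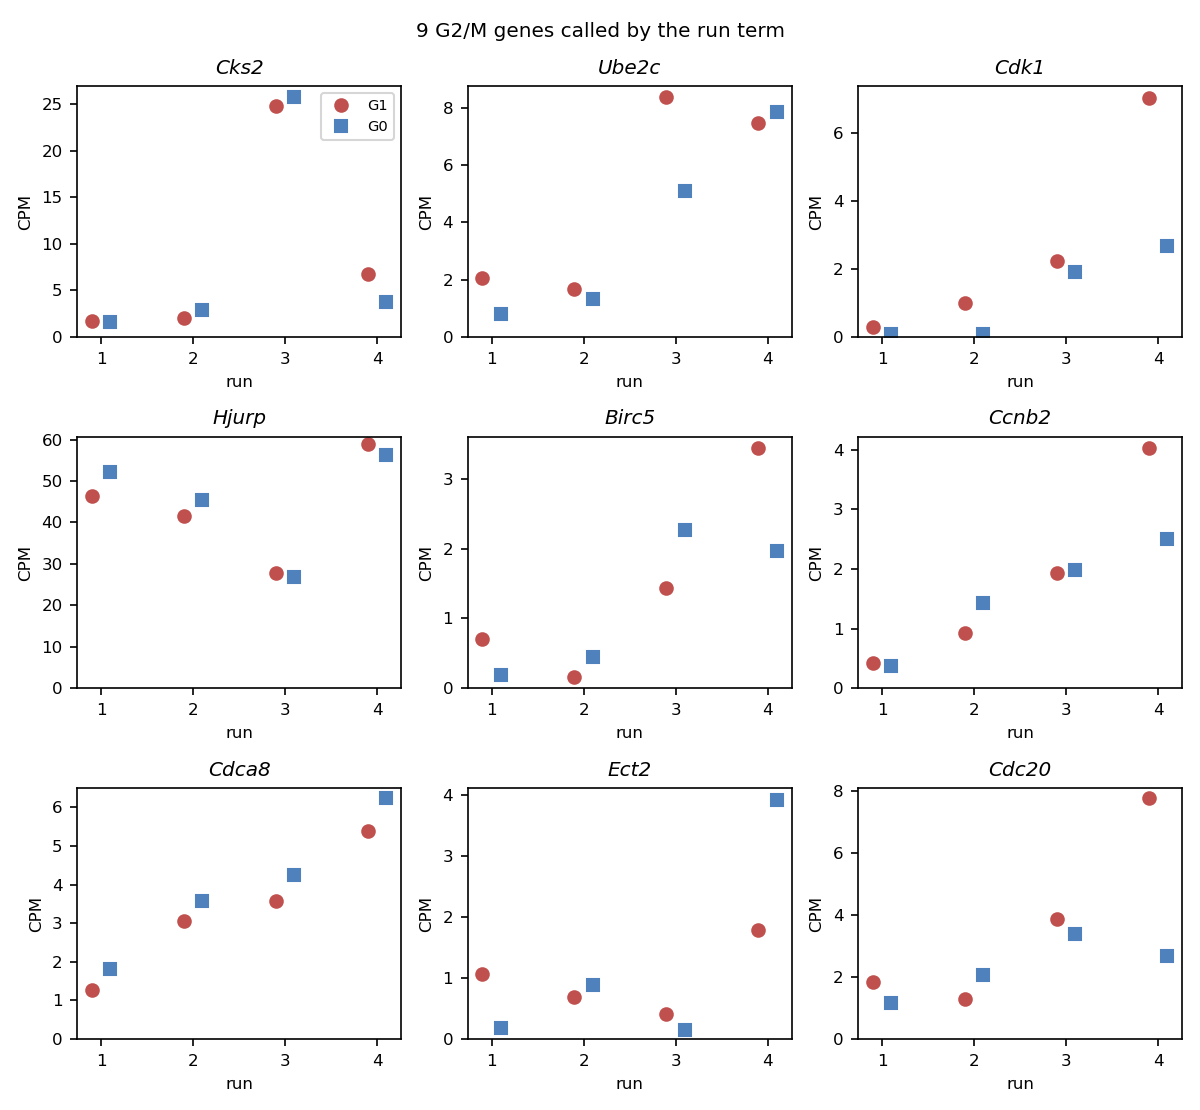
CPM of the 9 G2/M genes called by the run term (adjusted p of 0.05 or less, edgeR with run and phase) in each run, G1 as circles left of G0 as squares. Cks2 reaches 24.8 CPM in G1 and 25.7 CPM in G0 in run 3, and of the other 8 genes every one has its highest mean over both phases in run 4.

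Run 4 was the highest for most of the list. Averaged over both phases, 22 of the 30 tested genes (73.3%) had their highest CPM in run 4, beside 24.5% of all tested genes, and so did all 18 untested genes of the list. Within G1 libraries alone 22 of the 30 tested genes (73.3%) were highest in run 4, beside 20.3% of all tested genes, and within G0 libraries 16 of 30 (53.3%), beside 27.6%. Over all 48 genes, tested or not, the numbers were 39 in G1 and 30 in G0, and 39 in G1 and 23 in G0 with the olfactory background subtracted. Of 45 other G2/M and mitosis genes, 30 were highest in run 4 in each phase, and of 29 S-phase genes 14 in G1 and 9 in G0. No share was taken over all genes below the filter on low counts. The 18 untested genes and these whole lists therefore have no such share beside them, and G0 run 4 had counts for the most genes (39094). Myeloid markers also summed highest in run 4, at 57.5 CPM in G1 run 4, against 26.1 to 28.7 CPM in the other G1 libraries, and at 72.5 CPM in G0 run 4, against 28.3 to 58.9 CPM in the other G0 libraries. Lymphocyte markers summed to 5.68 CPM in G1 run 4, with 0 of 8 absent, against 0.307 to 2.35 CPM with 5 or 6 of 8 absent in the other G1 libraries. In G0 they summed to 21.6 CPM in run 4 with 0 absent, and to 0, 0.268 and 12.8 CPM in runs 1 to 3 with 8, 6 and 0 absent. Other lists differed: pericyte markers were lowest in G1 run 4 (16.9 CPM) but highest in G0 run 4 (55.2 CPM), and endothelial markers were highest in run 3 of both phases. G0 runs 3 and 4 also held the highest olfactory background. The part of myeloid cells, lymphocytes or that background in the run 4 levels was not tested.

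Of 45 other G2/M and mitosis genes, 24 were tested and 0 called by either edgeR fit, with 17 positive and a median log2 fold change of 0.14. Spc24, a kinetochore subunit, had the smallest p, with 1.06, 1.07, 2.35 and 4.78 CPM in G1, against 0.726, 0.626, 0.495 and 1.43 CPM in G0 (log2 fold change 1.52 ± 0.64). Cenpw, a centromere protein, had a fold change of 0.69 ± 0.38 and Ccnf, cyclin F, one of -1.20 ± 0.55. Of 26 tested S-phase genes 20 were positive and 0 called, with a median of 0.10. Tyms, which makes thymidylate, averaged 9.23 ± 1.93 CPM in G1 and 6.10 ± 1.04 CPM in G0, and Uhrf1, Rrm2 and Mcm5 had log2 fold changes of 0.72 ± 0.35, 0.60 ± 0.34 and 0.70 ± 0.42.

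Of 13 regulators of G2/M timing, 4 had a positive fold change and 0 were called, with a median of -0.12. Lin9, a subunit of the MuvB core, had 4.25, 3.53, 3.37 and 3.74 CPM in G1, against 6.80, 5.46, 9.82 and 6.43 CPM in G0. All 4 G1 libraries lay below all 4 G0 libraries. Its log2 fold change of -0.94 ± 0.30 did not pass adjustment over all genes (edgeR, unadjusted p = 0.00890, adjusted p = 0.9999; in the blocked fit -0.91 ± 0.28, adjusted p = 0.123). Mybl2, the B-Myb gene, had a fold change of 0.33 ± 0.45, Cdc25b, a phosphatase that activates Cdk1, one of -0.67 ± 0.52, and Wee1, the kinase that restrains Cdk1, one of -0.20 ± 0.30.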

How the data were processed

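RNA was measured in 8 libraries, 4 of G1 and 4 of G0 cells. Per the labels' protocols, mRNA was enriched on oligo-dT beads and stranded TruSeq libraries were read as paired ends. The submitters' processing notes name Trimmomatic 0.35, STAR 2.5.2a and the build mm10. No source used here gives the program that counted reads, its strand option or its annotation. The authors deposited unnormalized read counts for each Ensembl gene, and every value is a whole number. Symbols, exon lengths and positions came from GENCODE M21 (GRCm38, that is mm10), and 54808 of 54837 identifiers had a symbol.

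The 48 genes (given by name), the other lists, the tests and the named genes were chosen with earlier results of these data known. edgeR 4.0.16 in R 4.3.3 (TMM scaling, filterByExpr by phase, robust quasi-likelihood F test, two-sided, Benjamini-Hochberg over 15192 genes at 0.05) was fitted with the phase alone. Standard errors were obtained by dividing the size of a log2 fold change by the root of its F. CPM are TMM-scaled. Alternatives were DESeq2 1.42.0, limma-voom (limma 3.58.1), RLE factors, a minimum of 10 counts in every library, no filter, the replicate block and leaving out each library or run. The run term, the olfactory subtraction and leaving out Cks2 or genes with overlapping exons, and the 2 combined sums, were added after seeing the data. The scripts were tested on simulated data. Near-identical copies were sought with BLAST 2.17.0 (at least 200 bases at 95% identity) and found for Ccnb1, Cks2, Hmgb2 and Mki67.

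The run numbers come from the titles. Deviations of log2 CPM from the phase mean correlated at 0.668, 0.470, 0.638 and 0.437 between the libraries of runs 1 to 4, and at most at 0.0971 between different runs, so the libraries of a run behaved as pairs. The blocked fit and the ratios within runs used this pairing. The main fit with the phase alone did not, so its standard errors include the spread between runs. edgeR's common coefficient of variation was 34.9% with the phase alone and 16.9% with the block. Chi-square per degree of freedom was 21.7 to 95.1 for pairs of libraries within a phase, far from a repeated deposit. The floors cover counting error only. The rule for named genes took 13 standard cell cycle and mitosis genes and the 5 of highest mean CPM. It also took the 8 of smallest p in either fit and the highest and lowest fold change. Of other lists it took the 3 of smallest p. Cell type lists were given as sums and counts. Single luminal progenitor and endothelial markers were added outside the rule, where a sum hid differences between markers. Other genes named stand as examples of their role.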

Additional observations from a re-analysis of the deposited data

Results flagged for a closer look

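In 12 of 100 groups of 4 libraries, 1 library lay farther from the other 3 than Dixon's 95% limit. Chance gives about 5% for independent normal values, but many of these values rest on a few reads and the groups share libraries. The 12 can therefore not be compared with that rate. A group with reads in 1 library alone, such as Aurkb in G0, always passes the limit. In 6 of the 12 groups the library was G0 run 4, which had counts for the most olfactory receptor genes. Top2a stood at 3.75 CPM there, against 0.268 to 0.848 CPM in the other G0 libraries. Aurkb stood at 0.893 CPM there, against 0 in the other 3. Cdca3 had 1.61 CPM there, against 0 to 0.0707 CPM. Nusap1 and Dlgap5 each had 2.32 CPM there, against 0.0895 to 0.454 CPM and 0 to 0.363 CPM. Psrc1 had 3.39 CPM there, against 0.726 to 1.16 CPM. At the density of the olfactory genes, the reads expected were 9.72 of the 21 Top2a reads, 3.18 of the 5 Aurkb reads, 3.09 of the 9 Cdca3 reads, 4.38 of the 13 Nusap1 reads, 7.34 of the 13 Dlgap5 reads and 3.63 of the 19 Psrc1 reads in that library.

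Run 4 also stood apart in G1 for Bub1, at 2.69 CPM against 0 to 0.408 CPM in the other G1 libraries, and for Hmmr, at 1.64 CPM against 0 to 0.153 CPM. G0 run 3 stood apart for Cks2, at 25.7 CPM against 1.63 to 3.75 CPM in the other G0 libraries, and for Ckap2, at 4.31 CPM against 0.537 to 1.18 CPM. Smc4 had 46.0 CPM in G1 run 2, against 33.2 to 35.2 CPM in the other G1 libraries, and 35.1 CPM in G0 run 1, against 29.6 to 30.6 CPM in the other G0 libraries.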

How the results depend on the processing

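No G2/M gene was called under any alternative run. The count of genes called over the whole table was 0 with the phase alone, 87 with no filter, 34 with DESeq2 and 189 with the replicate block, and 97 to 274 with the block and 1 run left out (274, 153, 217 and 97 without runs 1 to 4); the cause was not tested. Among all alternatives the smallest adjusted p of a G2/M gene was 0.174, for Hmgb2 in the block without run 1. With 1 library left out a phase keeps 3. The run term called 2231 to 5379 genes and 4 to 11 G2/M genes with 1 run left out. Without run 3 it called 2231 genes and 6 G2/M genes, and without run 4 it called 5274 genes and 4 G2/M genes. Among genes with at least 10 counts in all 8 libraries, where fewer genes are tested, it called 5015 genes and 4 G2/M genes.

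Of 330 alternative fold changes for 19 tested genes, 42 had the opposite sign, 0 passed the threshold, and 8 genes never changed sign. By limma-voom the log2 fold changes were -0.13 for Ccnb2, -0.28 for Cks2, -0.076 for Birc5 and 0.84 for Ect2. With the replicate block they were 0.0094 for Aurka and 0.26 for Ect2. Aurka was at 0.016 with no filter and Cks2 at -0.0069 with at least 10 counts. With 1 library left out (phase alone) the ranges were -0.52 to 0.55 for Ccnb2, -1.36 to 1.68 for Cks2, -0.29 to 0.27 for Aurka, -0.67 to 0.79 for Birc5, -0.59 to 0.026 for Cdca8, -0.0043 to 0.93 for Cdc20, -0.015 to 0.98 for Ube2c, -0.23 to 0.12 for Hjurp, -0.067 to 0.25 for Kif20a, -0.69 to 1.25 for Ect2 and -0.81 to -0.018 for Mki67. They were also wide for Cdk1 (0.0089 to 1.80), Top2a (0.49 to 1.99) and Racgap1 (0.14 to 1.002). With the block and 1 run left out they were -0.84 to 0.012 for Mki67, -0.20 to 0.30 for Ccnb2, -0.18 to 0.23 for Cks2, -0.33 to 0.50 for Aurka (0.035 without run 4), -0.090 to 0.25 for Kif20a and 0.056 (without run 4) to 0.96 for Racgap1. Birc5 passed the filter only without run 1 (-0.25) or run 2 (0.47), and Ect2 only without run 1 (-0.31), run 2 (0.58) or run 3 (0.020), so neither has a value without run 4.

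Detected genes averaged 42.75 in G1 and 38.75 in G0 at 3 counts or more, 30.75 in G1 and 28.25 in G0 at 10 or more, and 31.5 in G0 above the olfactory 95th percentile. The summed CPM averaged 93.5 in G1 and 80.1 in G0 without the 5 most abundant genes, 200.2 in G1 and 179 in G0 without Hmgb2, 208 in G1 and 182 in G0 without genes sharing exon bases, 84.7 in G1 and 71.6 in G0 without the 5 most abundant and Cks2, and 91.9 in G1 and 66.9 in G0 without the 5 and with the olfactory background subtracted. The mean log2 ratio of the sums was 0.39 in the last of these and 0.14 to 0.27 in the others, with the olfactory subtraction alone and with each run left out. Counts of a few reads limit most of these genes.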
